A study of Homo sapiens with 12 samples.

Results

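The genes described here encode heat shock proteins and the co-chaperones that work with them, a set of 40 listed genes. They were taken by name: a gene was used where a row of the array table carried its symbol alone, and the brightest such row was kept. HSPA1A and HSPA1B, near-identical neighbours, share their rows and are given together as HSPA1A. Of the 40 genes, 38 were found among 18418 genes with a name of their own in the table, and HSF2 and AHSA1 were not analysed here. RNA levels were measured in HEK293T cells, a human embryonic kidney line that carries the SV40 large T antigen, in 4 groups of 3 arrays (Affymetrix Human Gene 1.0 ST). Cells of all groups were transfected with pRS-RFP-C plasmids by lipofection and lysed after 78 h. The plasmids encoded a nontargeting shRNA (shCTRL), shRNAs against LSD1 (shLSD1), shRNAs against UBE4B (shUBE4B), or both (shUBE4B+shLSD1, the double knockdown). The methods state that the mutant protein SOD1 G85R was present in these cells, and the sample labels do not name it. UBE4B is a ubiquitin ligase that extends ubiquitin chains, and LSD1, encoded by KDM1A, is a histone demethylase. The 3 arrays of each group are labelled as biological replicates, with nothing on whether cultures were separate, so p-values measure only the spread between these arrays. The comparison addressed here is whether lowering either enzyme, or both, shifts the RNA of the chaperone system.

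Heat shock proteins of the HSP70 class bind exposed hydrophobic stretches of unfolded proteins and release them in a cycle driven by ATP. J proteins (HSP40s) deliver the substrate and trigger ATP hydrolysis, and BAG proteins and the HSP110 class exchange the nucleotide so that the substrate is let go. HSP90 acts on nearly folded clients with the help of STIP1, CDC37 and PTGES3, small heat shock proteins hold unfolded proteins without ATP, and the chaperonin HSPD1 with HSPE1 folds proteins in the mitochondrial matrix. When unfolded proteins accumulate, heat shock factor 1 (HSF1) binds heat shock elements in the promoters of many of these genes and raises their RNA. The name cytosolic covers most of the set but not all of it. HSPA9, TRAP1, HSPD1, HSPE1 and DNAJA3 are mitochondrial, HSPA13 is a microsomal protein, DNAJC8 is linked to splicing in the nucleus, and HSPB11 is now named IFT25, a component of intraflagellar transport.

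The promoters of 5 members that the results turn on are shown first, as read from RefSeq on GRCh38.p14, from 250 bases before to 50 bases after the start of the gene and in the direction of transcription. Capitals mark every match to the paired heat shock unit, searched as GAANNTTC or TTCNNGAA (each reads the same on both strands), with overlapping matches run together. DNAJB1 (chr19:14518348-14518647, minus strand) and HSPA1A (chr6:31815293-31815592, plus strand) are classical heat-inducible genes. DNAJB1 has 3 windows for different starts, 2 of them with a match, and the window shown was picked from those 2. The other genes shown have 1 window each. HSPA8 (chr11:123062087-123062386, minus strand) is the constitutive HSP70 and has 2 runs of 3 units. DNAJA2 (chr16:46973625-46973924, minus strand) and HSPH1 (chr13:31162339-31162638, minus strand) hold no match in this window.
DNAJB1: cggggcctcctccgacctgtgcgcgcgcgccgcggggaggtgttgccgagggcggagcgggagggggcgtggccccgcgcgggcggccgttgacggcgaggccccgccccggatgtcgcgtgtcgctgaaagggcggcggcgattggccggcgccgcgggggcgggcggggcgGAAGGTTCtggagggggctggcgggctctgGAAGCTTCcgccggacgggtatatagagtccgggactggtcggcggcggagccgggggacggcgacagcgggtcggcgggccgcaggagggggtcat
HSPA1A: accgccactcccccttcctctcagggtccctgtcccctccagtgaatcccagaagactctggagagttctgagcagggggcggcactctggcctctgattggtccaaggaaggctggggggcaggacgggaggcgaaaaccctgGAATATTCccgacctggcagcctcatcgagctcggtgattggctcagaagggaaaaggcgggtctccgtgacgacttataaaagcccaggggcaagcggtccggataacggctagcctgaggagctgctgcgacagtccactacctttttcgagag
HSPA8: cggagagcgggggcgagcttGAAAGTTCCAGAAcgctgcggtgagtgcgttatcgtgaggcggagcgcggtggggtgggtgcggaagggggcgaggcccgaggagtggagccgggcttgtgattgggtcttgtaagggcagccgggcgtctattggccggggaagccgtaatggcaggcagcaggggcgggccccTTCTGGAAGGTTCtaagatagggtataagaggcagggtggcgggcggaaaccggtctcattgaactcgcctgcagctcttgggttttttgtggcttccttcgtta
HSPH1: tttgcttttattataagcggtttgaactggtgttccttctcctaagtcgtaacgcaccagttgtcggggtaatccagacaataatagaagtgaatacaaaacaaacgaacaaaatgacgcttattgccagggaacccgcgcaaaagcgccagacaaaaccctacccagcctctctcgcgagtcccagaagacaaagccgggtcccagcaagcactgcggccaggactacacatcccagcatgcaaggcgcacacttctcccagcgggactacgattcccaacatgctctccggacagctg
DNAJA2: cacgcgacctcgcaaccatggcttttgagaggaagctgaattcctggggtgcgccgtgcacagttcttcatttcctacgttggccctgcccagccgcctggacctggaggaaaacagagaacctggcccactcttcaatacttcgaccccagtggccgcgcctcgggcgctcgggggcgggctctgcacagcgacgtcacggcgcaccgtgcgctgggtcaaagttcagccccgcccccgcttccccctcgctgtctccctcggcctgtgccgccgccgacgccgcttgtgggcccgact

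A paired unit stood in 13.5% of all 35116 promoter windows of this length, and in 17 of the 51 windows of members (33.3%). Counted by gene, 16 of the 36 listed members with a window had one, and 34 of the 36 were measured here. A run of 3 units, GAANNTTCNNGAA or TTCNNGAANNTTC, stood in 0.49% of all windows and in those of 6 members, namely HSPA8, HSP90AA1, HSP90AB1, HSPD1, DNAJA1 and DNAJB6. In the window shown for DNAJB1 the matches began 77 and 47 bases before the start, and in HSPA1A 106 bases before it. The windows of HSPA1A and HSPA1L, which are transcribed away from each other, share 241 bases. A match describes the letters only and is not a measured binding site.

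The shRNAs lowered the RNA of their targets. The log2 signal of UBE4B was 10.28 to 10.39 on the control arrays, 8.89 to 9.06 with shUBE4B and 8.75 to 9.11 in the double knockdown, which was 37.8% and 37.4% of the control level. KDM1A read 10.83 to 10.96 on the control arrays, 9.46 to 9.84 with shLSD1 and 9.58 to 9.89 in the double knockdown, or 41.6% and 46.0% of the control level. All values are log2 signals normalized between arrays, so array medians lay between 7.00 and 7.06 and a change of total RNA per cell would not show. Less RNA per cell and fewer cells with a transcript cannot be told apart in such bulk samples. Of 7 markers listed for HEK293 cells, VIM, INA, NEFL and KRT18 read 8.74 to 11.35, KRT8 and NEFM 7.69 to 8.47, and PAX2, near the array medians, 6.92 to 7.32. Of 7 markers of blood, endothelium, liver and fibroblasts, 6 read 4.33 to 6.84 and the collagen gene COL1A1 8.02 to 8.26, and of 5 colon markers CDX2 (9.17 to 9.45) and CDX1 (7.71 to 7.98) lay above the array medians and the other 3 read 4.55 to 6.86. INA, a neurofilament protein, read 10.64 to 10.89 on the control arrays, 10.66 to 10.74 with shLSD1 and 10.33 to 10.53 on the 6 arrays with shRNA against UBE4B. NEFL, also a neurofilament protein, went the other way with shUBE4B (9.58 to 9.79, against 9.24 to 9.57 on the control arrays). PAX2 was lower with shUBE4B (6.95 to 7.11, against 7.15 to 7.18). VIM, KRT8, KRT18 and NEFM with shUBE4B overlapped control. The bearing of these values on the chaperone genes was not tested. Against the mean of the other control arrays, 28 of the 38 members were lower on shCTRL replicate 2 (median difference -0.10), and 29 were higher on shCTRL replicate 1 (median 0.10). Over all genes these medians were 0.0101 and -0.0013. When limma estimated a weight for each array over all genes, shCTRL replicate 2 had the lowest, 0.28, and the other arrays had 0.73 to 1.87.

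Few of these genes passed the test against control, and the log2 changes that passed lay between -0.34 and 0.32. By limma over all 12 arrays, with adjustment over all 18418 genes, 2 of 38 members passed an adjusted p under 0.05 in the double knockdown against control, where 7.56% of all genes did. One rose (DNAJA2) and one fell (HSPA14). With shUBE4B alone, 1 member passed (DNAJA2, higher), against 10.1% of all genes. With shLSD1 alone no member passed by limma, against 0.82% of all genes. The smallest adjusted p was then 0.256 (DNAJB4), and the methods' t-test after adjustment also called 0. By limma, 7 members with shUBE4B, 3 in the double knockdown and 1 with shLSD1 had an unadjusted p under 0.05. Of all genes, 27.5%, 20.7% and 13.4% did. The median log2 change of the members was -0.03 in the double knockdown, -0.05 with shUBE4B and 0.02 with shLSD1, and that of all genes was -0.01, -0.03 and -0.01. The arrays of a knockdown and of control did not overlap for 4 members in the double knockdown, 9 with shUBE4B and 3 with shLSD1, where 21.9%, 30.3% and 16.6% of all genes were likewise apart. These shares of members were not tested against those of all genes.

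**Figure D1:**
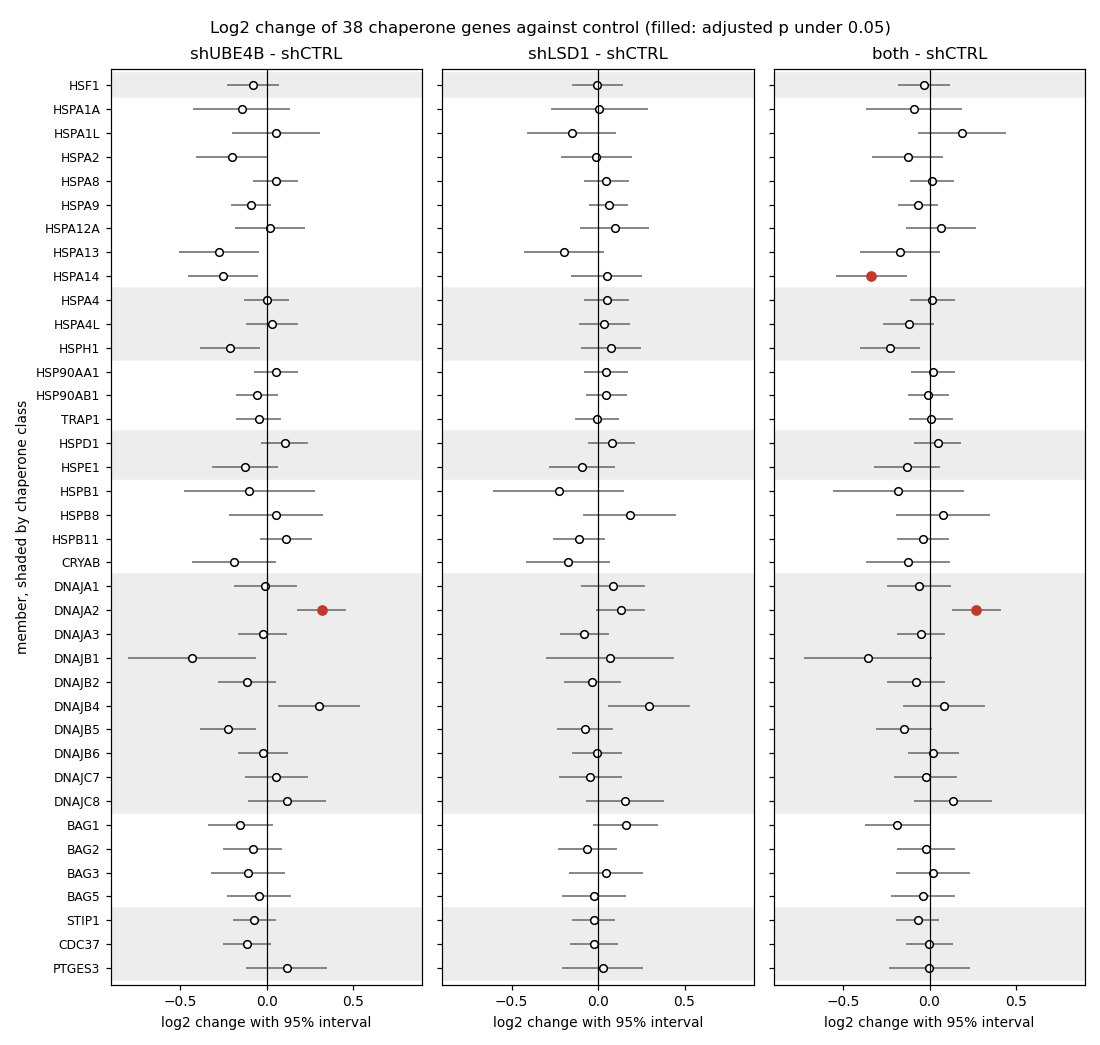
Log2 change against control of each of the 38 chaperone genes (rows, with alternate chaperone classes shaded) for shUBE4B, shLSD1 and both shRNAs, with 95% intervals from limma as horizontal lines. Filled points passed an adjusted p under 0.05: DNAJA2 in the left and right panels and HSPA14 in the right panel. The other points lie mostly within 0.2 of zero, and DNAJB1 has the lowest point in the left and right panels with a wide interval.

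The intervals set how large a change could have been missed. In the double knockdown the 95% interval lay wholly within a 1.2-fold change either way for 20 of 38 members and within a 1.5-fold change for 37. The counts were 19 and 37 with shUBE4B, and 24 and 37 with shLSD1. The member outside the wider limit was DNAJB1 in the comparisons with shUBE4B (interval -0.80 to -0.06) and with both shRNAs (-0.72 to 0.02), and HSPB1 with shLSD1 (-0.61 to 0.15). For members that neither passed nor had an interval within these limits, 3 arrays a group left a change of 1.2-fold neither shown nor absent.

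The class medians lay between -0.14 and 0.05. The lowest was that of the 4 genes listed as small heat shock proteins with shLSD1 (-0.14), followed by that of the 3 HSP110 genes in the double knockdown (-0.12). The 4 were HSPB1 (-0.23), CRYAB (-0.18), HSPB11 (-0.11) and HSPB8 (0.18). None passed, CRYAB and HSPB8 are dim, and HSPB11 is the intraflagellar transport gene IFT25. The 8 members of the HSP70 class had a median log2 change of -0.08 in the double knockdown, -0.12 with shUBE4B and 0.03 with shLSD1. The 10 J proteins had medians of -0.04, -0.01 and 0.03, but the widest range, from -0.35 to 0.27 in the double knockdown and from -0.43 to 0.32 with shUBE4B. The 3 HSP90 genes had the narrowest range in the double knockdown, from -0.01 to 0.02. All 4 BAG genes had negative values with shUBE4B (median -0.09), and none passed the test. No class had more than 1 member past the test in a comparison with control.

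**Figure D2:**
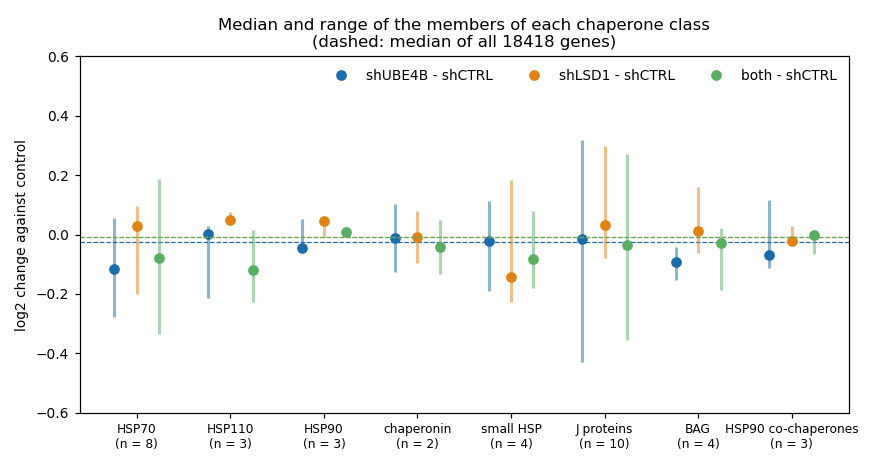
Median (points) and range (bars) of the log2 change against control over the measured members of each chaperone class, for shUBE4B, shLSD1 and both shRNAs, with n as the number of genes; HSF1, alone in its class, is not drawn. Dashed lines give the median over all genes. J proteins span the widest range, from -0.43 to 0.32 with shUBE4B, and HSP90 genes the narrowest in the double knockdown.

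Of the J proteins, DNAJA2 was the member whose RNA moved most clearly. DNAJA2 is a class A J protein that stimulates the ATPase of HSPA8 and takes part in refolding. It read 10.12, 10.00 and 10.11 on the control arrays, 10.24, 10.23 and 10.15 with shLSD1, 10.42, 10.42 and 10.34 with shUBE4B, and 10.45, 10.33 and 10.26 in the double knockdown. All arrays of each knockdown lay above all control arrays. Its log2 change was 0.32 with shUBE4B (SE 0.07, 1.25-fold, adjusted p = 0.00973) and 0.27 in the double knockdown (SE 0.07, 1.21-fold, adjusted p = 0.0232). With shLSD1 it was 0.13 (95% interval -0.01 to 0.27, adjusted p = 0.418). The call with shUBE4B held with each of the 12 arrays left out in turn, and the methods' t-test ended it (adjusted p = 0.0929). The call in the double knockdown ended without shCTRL replicate 2 (adjusted p = 0.0524) and without shUBE4B+shLSD1 replicate 1 (0.0951) or 2 (0.0564). It also ended with array weights, with limma on the compared arrays and with the methods' t-test (adjusted p up to 0.206).

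DNAJB1, the class B J protein that is strongly induced by heat through HSF1, had the largest negative value of the set with large scatter inside each group. It read 11.01, 10.62 and 10.44 on the control arrays, 11.01, 10.75 and 10.52 with shLSD1, 10.46, 10.32 and 10.00 with shUBE4B, and 10.59, 10.33 and 10.08 in the double knockdown. The control arrays overlapped every knockdown group. The log2 change was -0.43 with shUBE4B (95% interval -0.80 to -0.06, adjusted p = 0.126) and -0.35 in the double knockdown (adjusted p = 0.266), and neither passed in the fit by group alone. The within-group SD of DNAJB1 was 0.26, above that of 98.9% of all genes against a median of 0.10 over the members. In each of the 4 groups its array numbered 1 gave the highest value and its array numbered 3 the lowest, which also held for HSPA1A and BAG3. HSPA13 ran the other way in all 4 groups. One same order of the array numbers in all groups was seen in 4 of 38 members (10.5%) and in 1.41% of all genes, and the labels do not say what a number marks. Between arrays of the same number, DNAJB1 differed from control by -0.55, -0.30 and -0.44 with shUBE4B. In the double knockdown it differed by -0.42, -0.29 and -0.35. With the replicate number as a block in limma, both comparisons passed (adjusted p = 0.00185 and 0.00418). Whether the numbers pair the samples was not settled.

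Other J proteins gave no call against control. DNAJB4, a class B J protein, read 8.60, 8.35 and 8.45 on the control arrays, 8.76, 8.75 and 8.78 with shLSD1, 8.72, 8.79 and 8.78 with shUBE4B, and 8.77, 8.24 and 8.65 in the double knockdown. Both single knockdowns lay above all control arrays (log2 change 0.30 in each, adjusted p = 0.256 with shLSD1 and 0.0985 with shUBE4B), and the double knockdown spread over the whole range. Without shUBE4B+shLSD1 replicate 2 the value with shUBE4B passed (adjusted p = 0.0214), since that array takes part in the shared estimate of the spread. DNAJB5 had a log2 change of -0.22 with shUBE4B (adjusted p = 0.0733) with no overlap with control, and passed with further quantile normalization and without the dimmest genes. DNAJA1, a heat-inducible partner of HSPA8, had log2 changes of -0.06, -0.01 and 0.09 in the double knockdown, with shUBE4B and with shLSD1. The remaining members of the class (DNAJA3, DNAJB2, DNAJB6, DNAJC7 and DNAJC8) lay between -0.11 and 0.16.

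**Figure D3:**
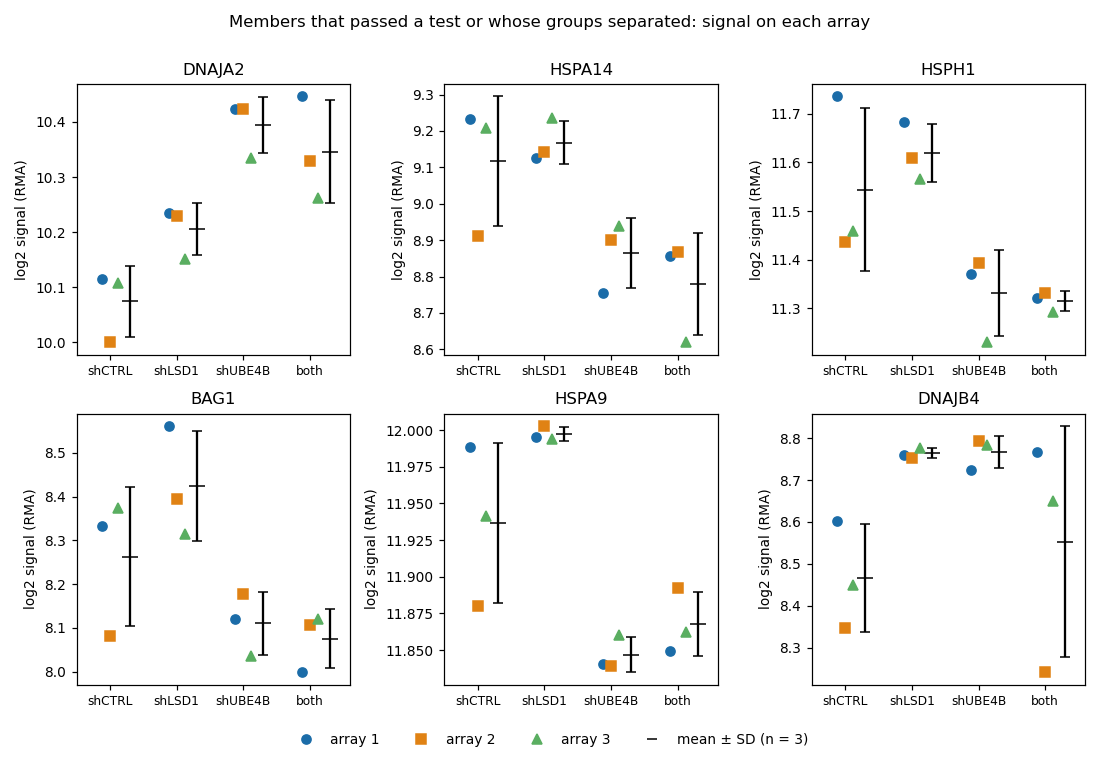
Log2 signal on each array for 6 members that passed a test or whose knockdown arrays lay beyond all control arrays; marker shape and colour give the replicate number, and black bars are the mean ± SD of 3 arrays. DNAJA2 steps up from control (10.00 to 10.12) to shUBE4B (10.34 to 10.42), while HSPA14, HSPH1 and BAG1 sit lower in both groups with shRNA against UBE4B. Each panel has its own vertical axis, which does not start at 0.

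Of the HSP70 class, HSPA14 was the only member past the test. HSPA14 (HSP70L1) forms a complex with the J protein DNAJC2 at the ribosome. It read 9.23, 8.91 and 9.21 on the control arrays, 9.13, 9.14 and 9.24 with shLSD1, 8.76, 8.90 and 8.94 with shUBE4B, and 8.86, 8.87 and 8.62 in the double knockdown. The double knockdown lay below all control arrays, and shUBE4B overlapped only shCTRL replicate 2. In the double knockdown HSPA14 fell by 0.34 in log2 units (SE 0.095, 79.2% of control, adjusted p = 0.048). The log2 change with shUBE4B was -0.25 (adjusted p = 0.107), and it was -0.36 and passed without shCTRL replicate 2 (adjusted p = 0.0287). The call in the double knockdown sat at the threshold: leaving out any 1 of 11 of the 12 arrays ended it (adjusted p between 0.0562 and 0.176), and it held without shCTRL replicate 2. It also ended with median centring, with limma on the compared arrays and with the methods' t-test (adjusted p up to 0.37).

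The constitutive and inducible HSP70s gave no call. HSPA8, the abundant constitutive HSP70, read 13.44 to 13.62 over all 12 arrays, and its log2 changes of 0.02, 0.05 and 0.05 in the double knockdown, with shUBE4B and with shLSD1 had 95% intervals within -0.11 to 0.18. HSPA1A, the heat-inducible HSP70, read 12.70, 12.53 and 12.30 on the control arrays, 12.71, 12.54 and 12.31 with shLSD1, 12.48, 12.48 and 12.14 with shUBE4B, and 12.54, 12.48 and 12.25 in the double knockdown. All groups overlapped. Its log2 change was -0.14 with shUBE4B (adjusted p = 0.496) and -0.09 in the double knockdown (adjusted p = 0.776), and its 5 rows gave -0.14 to -0.22 and -0.09 to -0.11. HSPA9, the mitochondrial HSP70, had the smallest scatter of all members (SD 0.03): it read 11.99, 11.88 and 11.94 on the control arrays, 12.00, 12.00 and 11.99 with shLSD1, 11.84, 11.84 and 11.86 with shUBE4B, and 11.85, 11.89 and 11.86 in the double knockdown. The arrays with shLSD1 lay above and those with shUBE4B below all control arrays, by 0.06 and -0.09 on the log2 scale, and neither passed (adjusted p = 0.69 and 0.295). HSPA13 had a log2 change of -0.28 with shUBE4B with no overlap with control (adjusted p = 0.115). HSPA1L, a testis-rich HSP70, was dim (5.30 to 5.93), and its rows differed in sign with shLSD1 (-0.15 and 0.10). Without shUBE4B+shLSD1 replicate 1 it passed in the double knockdown (log2 change 0.37, adjusted p = 0.0184, against 0.19 and 0.416 with all arrays).

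HSPH1 was lower wherever shRNA against UBE4B was present, though neither comparison with control passed. HSPH1 (HSP105) is a heat-inducible HSP110 that exchanges the nucleotide of HSP70. It read 11.74, 11.44 and 11.46 on the control arrays, 11.68, 11.61 and 11.57 with shLSD1, 11.37, 11.39 and 11.23 with shUBE4B, and 11.32, 11.33 and 11.29 in the double knockdown. All 6 arrays with shRNA against UBE4B lay below all 6 without it. The log2 change was -0.21 with shUBE4B and -0.23 in the double knockdown (adjusted p = 0.109 in both). Both passed with trend and robust settings of limma (adjusted p = 0.0457 and 0.038). The other HSP110 genes, HSPA4 and HSPA4L, had log2 changes of 0.02 and -0.12 in the double knockdown. The HSP90 genes gave no call: HSP90AA1, the inducible form, read 12.00 to 12.18 over all arrays, HSP90AB1, the constitutive form, read 12.67 to 12.84, and the mitochondrial TRAP1 read 11.37 to 11.54.

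BAG1, a nucleotide exchange factor that links HSP70 to the proteasome, had a pattern like that of HSPH1 with more overlap. It read 8.33, 8.08 and 8.38 on the control arrays, 8.56, 8.39 and 8.32 with shLSD1, 8.12, 8.18 and 8.03 with shUBE4B, and 8.00, 8.11 and 8.12 in the double knockdown. Of the 6 arrays without shRNA against UBE4B, only shCTRL replicate 2 fell among those with it. Its log2 change was -0.19 in the double knockdown (adjusted p = 0.244) and -0.15 with shUBE4B (adjusted p = 0.277). BAG3, a heat-inducible BAG protein that takes part in selective autophagy, read 10.66, 10.55 and 10.40 on the control arrays and 10.70, 10.50 and 10.47 in the double knockdown, a log2 change of 0.02 (adjusted p = 0.943). BAG2, an inhibitor of the ligase STUB1, and BAG5 lay between -0.08 and -0.02 in all 3 comparisons with control. Among the HSP90 co-chaperones, STIP1, which joins HSP70 to HSP90, was below all control arrays with shUBE4B and in the double knockdown by 0.07 on the log2 scale, which did not pass (adjusted p = 0.452 and 0.582). CDC37, which brings kinases to HSP90, and PTGES3 (p23) had log2 changes of -0.00 in the double knockdown.

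Small heat shock proteins and chaperonins showed no call. HSPB1 (HSP27), a heat-inducible small heat shock protein, varied most of all members within groups (SD 0.26), reading 9.35, 9.47 and 9.89 on the control arrays and 9.02, 9.43 and 9.73 in the double knockdown, a log2 change of -0.18 (adjusted p = 0.64). CRYAB, a partner of HSPB1, was dim (5.12 to 5.63) and had a log2 change of -0.13 in the double knockdown. HSPB8, which works with BAG3, read 6.04 to 6.61 and had a log2 change of 0.08. The chaperonin HSPD1 and its lid HSPE1 had log2 changes of 0.05 and -0.13 in the double knockdown (adjusted p = 0.75 and 0.45). HSF1 itself read 10.16, 10.25 and 10.06 on the control arrays and 10.17, 10.13 and 10.06 in the double knockdown, a log2 change of -0.03 (95% interval -0.18 to 0.12, adjusted p = 0.861).

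Across classes, 11 measured members were listed as heat-inducible, among them HSPA8, which is mostly constitutive (HSPA1A, HSPA8, HSPH1, HSP90AA1, HSPD1, HSPE1, HSPB1, DNAJA1, DNAJB1, BAG3 and STIP1). None passed against control in any knockdown in limma's fit of the 4 groups, and other settings called HSPH1 or DNAJB1. At an unadjusted p under 0.05 stood 2 of the 11 with shUBE4B (HSPH1 and DNAJB1), 1 with both shRNAs (HSPH1) and 0 with shLSD1. Of all genes, 27.5%, 20.7% and 13.4% stood there. In the double knockdown 4 had positive and 7 negative values (median -0.07, range -0.35 to 0.05). With shUBE4B 3 were positive and 8 negative (median -0.10), and with shLSD1 8 were positive and 3 negative (median 0.05). The 6 members with 3 heat shock units in a row had a median log2 change of 0.02 in the double knockdown, between -0.06 and 0.05, and the 10 with a pair only had -0.07, between -0.35 and 0.19. Of the 18 with no match, the median was -0.03, between -0.23 and 0.27. The 5 mitochondrial members had medians of -0.05, -0.05 and -0.01 in the double knockdown, with shUBE4B and with shLSD1.

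**Figure D4:**
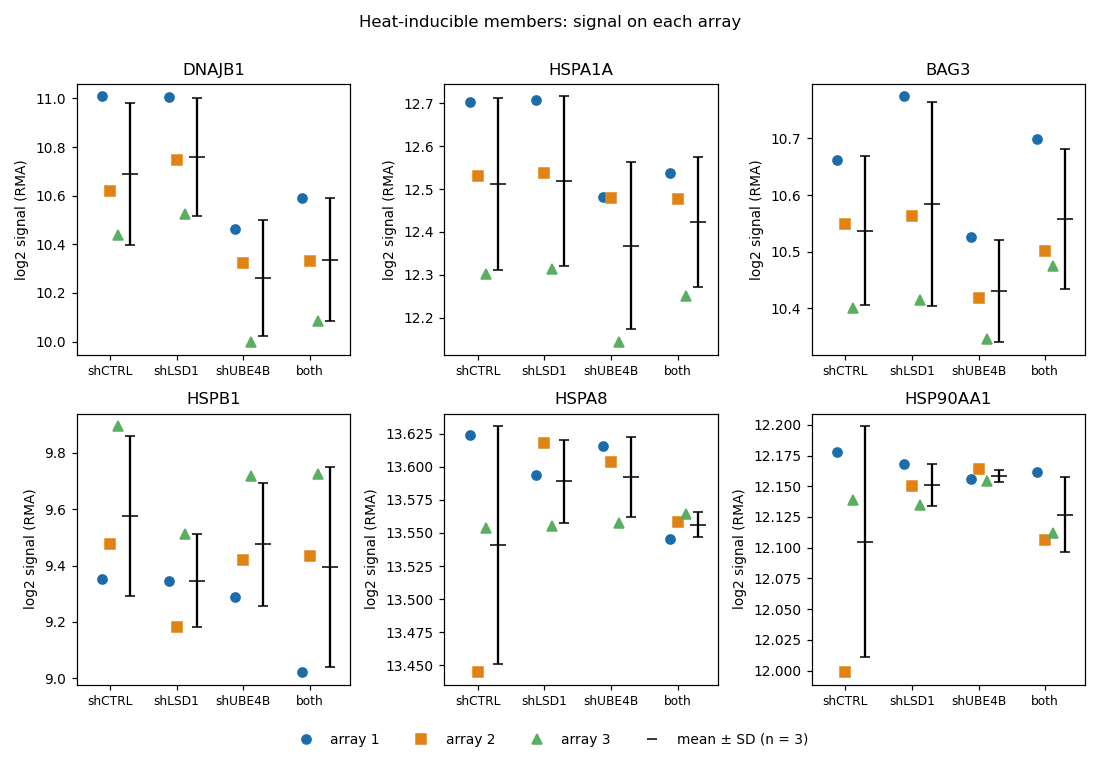
Log2 signal on each array for 6 members listed as heat-inducible, with replicate number by marker shape and colour and the mean ± SD of 3 arrays in black. DNAJB1 is lower with shUBE4B (10.00 to 10.46) and with both shRNAs (10.08 to 10.59) than on control arrays (10.44 to 11.01), with overlap, and DNAJB1, HSPA1A and BAG3 keep array 1 highest and array 3 lowest in every group. HSPA8 and HSP90AA1 vary by under 0.2 over all arrays, and each panel has its own vertical axis, which does not start at 0.

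Because the values with shUBE4B and with both shRNAs lay close together, the 6 arrays with shRNA against UBE4B were also compared with the 6 without it, a comparison added after the data were seen. Then 5 of 38 members passed (13.2%), near the 12.3% of all genes. DNAJA2 rose by 0.23 in log2 units (adjusted p = 0.00584), and 4 members fell: HSPA14 fell by 0.32 (adjusted p = 0.00743), HSPH1 fell by 0.26 (adjusted p = 0.00977), BAG1 fell by 0.25 (adjusted p = 0.0177) and DNAJB1 fell by 0.43 (adjusted p = 0.0359). In fold terms the levels were 117%, 80.1%, 83.6%, 84.1% and 74.4% of those without the shRNA. HSPH1 and DNAJA2 showed no overlap between the 6 and 6 arrays, as did 6.07% of all genes. The calls of DNAJA2, HSPA14, HSPH1 and BAG1 held with each of the 12 arrays left out in turn, and that of DNAJB1 ended in 8 of 12 cases (adjusted p up to 0.0899). The call of DNAJB1 ended without shCTRL replicate 1 or 2, shLSD1 replicate 1 or 2, shUBE4B replicate 2 or 3, or shUBE4B+shLSD1 replicate 2 or 3. With the replicate number as a block in limma, DNAJB1 passed with an adjusted p of 0.000153. Without shCTRL replicate 2, HSPA9 passed too (log2 change -0.12, adjusted p = 0.0375, against -0.11 and 0.078), and without shUBE4B+shLSD1 replicate 1 HSPA1L did (adjusted p = 0.00453). The same comparison for LSD1 shRNA, also added after the data were seen, called 0 members by limma, against 1.48% of all genes. Of the members, 1 had an unadjusted p under 0.05, against 12.9% of all genes.

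Tested directly, the knockdowns differed from each other in 1 member. HSPA14 in the double knockdown was below its level with shLSD1 (log2 difference -0.39, 76.4% of it, adjusted p = 0.0479, with no overlap), where 2.78% of all genes passed. That call held without any 1 of the control arrays and ended without any 1 of the other 9 (adjusted p between 0.0602 and 0.168). Without shUBE4B+shLSD1 replicate 1, HSPA1L passed there instead (log2 difference 0.52, adjusted p = 0.00872). HSPH1 passed there without shCTRL replicate 1 (0.0253) or 2 (0.0427), and BAG1 without shCTRL replicate 2 (0.0184) or 3 (0.0461), as adjusted p. Between shUBE4B and shLSD1 no member passed by limma, against 5.46% of all genes. The closest were BAG1 (log2 difference -0.31, adjusted p = 0.0553) and HSPH1 (-0.29, adjusted p = 0.056). An unadjusted p under 0.05 was found for 7 of the 38 members, near the 20.2% of all genes, and the methods' t-test called 1, HSPA9. There, too, left-out control arrays made calls: HSPH1 passed without shCTRL replicate 1 or 2, BAG1 without shCTRL replicate 2 or 3, and HSPA14 and HSPB11 without shCTRL replicate 2, up to 4 members at once. Between the double knockdown and shUBE4B no member passed by limma (0.147% of all genes did), and the methods' t-test called 0. There 2 members had an unadjusted p under 0.05, against 13.0% of all genes. The interaction of both knockdowns called 0 members by limma and 0.0% of all genes. The member nearest to it was DNAJB4 (log2 value -0.51, adjusted p = 0.246), the only one with an unadjusted p under 0.05, against 13.1% of all genes.

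Genes that share the pathway but are not in the set were described from 4 further lists. Of 14 subunits of the chaperonin TRiC and of prefoldin, which fold actin and tubulin, PFDN1 alone passed, with a log2 change of -0.26 with both shRNAs (10.91, 10.85 and 10.80 on control arrays, 10.63, 10.48 and 10.66 with both, adjusted p = 0.0384). Of 11 further heat-inducible genes, CLU, the secreted chaperone clusterin, passed: it read 7.34, 7.32 and 7.42 on control arrays, 6.93, 6.91 and 7.00 with shUBE4B, and 6.93, 6.86 and 7.16 with both shRNAs, and fell by 0.41 and 0.38 (adjusted p = 0.0065 and 0.0104). With shLSD1 CLU read 6.97, 7.13 and 7.10, also below all control arrays. Its log2 change there was -0.30, which did not pass by limma (adjusted p = 0.105) but passed without the dimmest genes (0.0481). HSPA6, a heat-inducible HSP70, had the largest negative values, -0.99 with shUBE4B and -0.93 with both shRNAs, and did not pass (adjusted p = 0.131 and 0.2). Its arrays spread widely: 8.74, 7.48 and 7.32 for control, 7.99, 7.87 and 7.02 with shLSD1, 7.22, 6.96 and 6.38 with shUBE4B, and 7.59, 6.98 and 6.17 with both shRNAs. In every group array 1 was highest and array 3 lowest, the order also seen in DNAJB1, HSPA1A and BAG3. DEDD2 and ZFAND2A of this list kept that order in every group too, and the other genes of the list did not. At each number HSPA6 was lower with shUBE4B and with both shRNAs than on the control array.

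Of 14 further cofactors of HSP70 and HSP90, BAG4, a nucleotide exchange factor, rose by 0.26 in the double knockdown (adjusted p = 0.0221), and GRPEL1, the exchange factor of mitochondrial HSPA9, fell by 0.31 there (adjusted p = 0.015). HSPBP1, another exchange factor, fell by 0.31 with shUBE4B (adjusted p = 0.0394). Of 12 further J proteins of cytosol and nucleus, DNAJC13, which acts on endosomes, rose by 0.30 with shUBE4B (adjusted p = 0.0252). Each list, of 11 to 14 genes, held 0 to 2 calls in a comparison with control. Of all genes, 7.56% passed in the double knockdown, 10.1% with shUBE4B and 0.82% with shLSD1. The counts of the lists were not tested against these shares. The median log2 changes in the double knockdown were -0.04 for TRiC and prefoldin, -0.16 for the further heat-inducible genes, -0.03 for the cofactors and -0.02 for the J proteins. The methods' t-test ended all of these calls (adjusted p between 0.0574 and 0.231), and limma on the compared arrays kept only that of CLU with shUBE4B. Both calls of CLU held with each array left out in turn. Leaving out 1 array ended the call of PFDN1 in 9 of 12 cases, shCTRL replicate 2 among them (it held without shUBE4B replicate 2 or 3 or shCTRL replicate 3) and that of HSPBP1 in 7 (all shUBE4B arrays, shCTRL replicates 1 and 2, and shLSD1 replicates 2 and 3). The call of BAG4 ended without shCTRL replicate 1 or shUBE4B+shLSD1 replicate 1 or 2, that of GRPEL1 without shCTRL replicate 1 or shUBE4B+shLSD1 replicate 1, and that of DNAJC13 without shCTRL replicate 2 or shUBE4B replicate 1 or 2. With shLSD1, GRPEL1 had a log2 change of -0.25 (adjusted p = 0.113), which passed under trend and robust settings, under array weights, and when shCTRL replicate 2 was left out (lowest adjusted p 0.0417).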

How the data were processed

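The 12 arrays (4 groups of 3) were read as the authors deposited them: log2 signals per transcript cluster from RMA in Partek, on hg19 annotation (tool versions not given in the sources used here). RMA corrects background and quantile-normalizes arrays, so global shifts are removed. The labels name the Ambion Expression WT kit for labelling, and the supplement another kit. Of 33297 clusters, 19460 had 1 symbol and 1754 several, and 5 rows shared by HSPA1A and HSPA1B were kept, giving 18418 genes at their brightest cluster. The number of arrays limits the precision. limma 3.58.1 in R 4.3.3 fitted 4 group means (lmFit, eBayes, 8 residual and 5.13 prior degrees of freedom) with Benjamini-Hochberg adjustment over all genes at 0.05, and was tested on simulated data. Tests on 2 pooled contrasts were added after seeing the data. The members and gene lists were chosen with earlier results of these data known. Named were members that passed, heat-inducible members, and the largest change of a class without such a member, with up to 4 genes per comparison of other lists. HSPA9, HSPA13, HSPA1L, DNAJB4, DNAJB5, the other members given by value, and HSPA6 were chosen after their values were seen. Alternatives were leaving out each array, trend and robust eBayes, limma on the compared arrays, a replicate block, array weights, further quantile normalization, median centring, the mean of all rows, removal of the 40% dimmest genes, the methods' t-test, and a 1.2-fold change with unadjusted p under 0.05. Promoters and current symbols came from RefSeq tables (GRCh38.p14), used with no position from hg19. Python 3.11.15 with pandas 2.3.3, NumPy 2.4.6 and matplotlib 3.10.9 made tables and figures.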

Additional observations from a re-analysis of the deposited data

Results flagged for a closer look

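HSPA14 differed between the double knockdown and shLSD1 by -0.39 on the log2 scale, a difference that passed its own test (adjusted p = 0.0479 by limma). HSPA9 stood on opposite sides of the control arrays in the single knockdowns, with every shLSD1 array above and every shUBE4B array below all control arrays. The difference between these knockdowns was -0.15 on the log2 scale and did not pass by limma (adjusted p = 0.127).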

How the results depend on the processing

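With the 1.2-fold rule the calls numbered 1 with shLSD1, 4 with shUBE4B, 5 for double against shLSD1, 4 for shUBE4B against shLSD1, 1 for the interaction and 2 for pooled UBE4B shRNA. In the order double against control, shUBE4B against control, double against shLSD1 and shUBE4B against shLSD1 (2, 1, 1 and 0 calls as reported), array weights gave 1, 2, 3 and 6 calls, trend and robust settings 3, 2, 3 and 3, further quantile normalization 2, 2, 2 and 2, median centring 1, 1, 0 and 0, removal of the dimmest genes 2, 2, 3 and 4, limma on the compared arrays 0, 1, 2 and 4, and the methods' t-test 0, 0, 0 and 1. Leaving out 1 array gave 0 to 1, 1 to 2, 0 to 3 and 0 to 4 calls, and 4 to 6 for pooled UBE4B shRNA (5 as reported). The cause of these shifts was not tested. These counts, and those of the replicate block below, stand without the share of all genes called under each alternative. They therefore cannot show a shift particular to the members. Class medians moved beyond their spread only without shCTRL replicate 2 (HSP110, double against control, -0.18) or shCTRL replicate 3 (small HSP with shUBE4B, 0.11; BAG with both shRNAs, -0.11, and with shLSD1, -0.069); over the left-out arrays these ranged from -0.18 to -0.084, -0.13 to 0.11, -0.11 to 0.038 and -0.069 to 0.079. No called change reversed its sign under any alternative run. With the replicate number as a block the calls were 2, 4, 2 and 2: DNAJB1 passed in all 4 comparisons (adjusted p between 0.00118 and 0.00425), HSPA13 and DNAJB5 passed with shUBE4B, HSPH1 passed against shLSD1 in both, and HSPA14 lost its calls (0.064 and 0.0648). Correlations between arrays were taken over all genes after the group mean of each gene was subtracted. Same-numbered arrays of different groups then correlated above 0.1 in 10 of 18 pairs (r from -0.08 to 0.33). All negative values among them involved shCTRL replicate 2. Arrays of different groups and different numbers had r from -0.34 to 0.25. For 6 of 12 arrays the own number was best in every other group. The labels do not say what a number marks, so whether the numbers pair the samples was not settled. Signal near background limits HSPA1L, CRYAB and HSPB8.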
